A study of Bos taurus with 8 samples.

Results

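The genes described here are *EPHA3*, a receptor named by the study as a marker of the superficial zone of articular cartilage, and 9 further genes of the Eph receptor and ephrin families, *EPHA2*, *EPHA4*, *EPHA5*, *EPHA7*, *EPHB2*, *EPHB4*, *EFNA5*, *EFNB1* and *EFNB2*. They were taken by name from the deposited count table, where all 10 were found among 24596 genes. The cartilage came from knee joints of wild-type calves that were 1 to 2 weeks old, and no treatment or transgene separated the groups. Chondrocytes of the superficial zone (SZCs) and of the deep zone (DZCs) were cut from the same cartilage cores as slices at different depths, freed with enzymes, and cultured in medium with serum for 3 days before RNA-Seq, with 2 libraries per zone. The comparison asked which genes differ between chondrocytes of the joint surface and those near the bone after this culture, and the libraries therefore describe cultured cells and not cartilage as it is in the joint. Because slices from a joint were pooled by zone, each library is a mixture of cells.

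Eph receptors are receptor tyrosine kinases, and their ligands, the ephrins, are bound to the surface of neighbouring cells, so that signals pass where cells touch. EphA receptors mainly bind ephrin-A ligands, which are held by a lipid anchor, and EphB receptors mainly bind ephrin-B ligands, which span the membrane and can themselves signal back into the cell that carries them. The families are known for repulsion and sorting of cells at tissue boundaries, for guidance of axons and vessels, and, in the skeleton, for roles in limb patterning and in the exchange between bone-forming and bone-resorbing cells.

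The libraries held between 19918970 and 21890549 counts, and the floor of detection was set at 3 counts, which equals 0.129 to 0.187 CPM depending on the library (CPM are counts scaled to the same library total, here with TMM factors that correct for composition). All 5 superficial zone markers that were checked (*PRG4*, *VIT*, *THBS4*, *WIF1* and *CREB5*) were called higher in SZCs by edgeR's exact test. DESeq2 called 4 of them, without *WIF1*. The study had already reported all of these markers as higher in SZCs from these same libraries. Their calls are therefore no independent evidence of zone identity. Of 8 chondrocyte markers the exact test called 1, *MATN3*, and DESeq2 called 2, *MATN3* and *COL2A1*, both higher in DZCs. The summed level of the 8 chondrocyte markers was 120692 and 120222 CPM in the SZC libraries and 484841 and 177823 CPM in the DZC libraries. *COL2A1* held the largest part of each sum, at 64981 and 55516 CPM in SZCs and 333205 and 118929 CPM in DZCs. The levels of *SOX9*, *ACAN* and *HAPLN1* overlapped between the zones. Those of *COL2A1*, *COL9A1*, *MATN3*, *COL11A2* and *COMP* were higher in both DZC libraries. The DZC libraries were unlike each other. The summed level of 8 mitotic genes was 18.8 CPM in DZC replicate 1 and 314 CPM in DZC replicate 2, against 179 and 203 CPM in the SZC libraries. The summed level of 9 hypertrophic and bone genes was 31.2 and 272 CPM in the DZC libraries and 111 and 104 CPM in the SZC libraries, mostly from *SPP1*. Without *SPP1* the other 8 summed to 12.3 and 71.4 CPM in the DZC libraries, against 2.59 and 1.68 CPM in the SZC libraries. In DZC replicate 1 nearly all of that sum was *IHH*, at 12.1 CPM, and none of the others had more than 1 count there. In DZC replicate 2, *MMP13*, *ALPL*, *IBSP*, *COL10A1* and *SP7* had 468, 445, 268, 221 and 140 counts. Of the mitotic list 0 genes were called by edgeR's exact test or DESeq2, with 0 at an unadjusted p-value under 0.05, and of the hypertrophic and bone list 1 was called by both tools, *IHH*, at 12.1 and 2.15 CPM in DZCs against 0.591 and 0.215 CPM in SZCs. The 9 tested members are therefore given below with each DZC library left out.

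Of the 10 genes, 9 passed the filter on low counts, and *EFNA5* did not. By edgeR's exact test, 3 of the 9 differed between the zones at a false discovery rate (FDR, the adjusted p-value) under 0.05, while 2.93% of the 12857 genes tested did so. *EPHA3* and *EPHB2* were higher in SZCs and *EFNB2* was higher in DZCs, where 2.23% and 0.7% of all genes were called in those directions. The quasi-likelihood test of edgeR, which allows for the uncertainty of each gene's spread and was fitted without a replicate block, called 0 of the 9 and 0 of all genes, with 5 of the 9 at an unadjusted p-value under 0.05, so no call that the exact test made below was made by it. The genes were chosen with earlier results of these libraries known, so this count is a description of them and not evidence about the families. The median log2 fold change of SZCs over DZCs was 0.34 over the 9 genes and -0.04 over all genes tested, and the median size of the change without its sign was 1.60 against 0.33. The libraries of the zones did not overlap for 4 genes with SZCs above DZCs (21% of all tested genes had this order) and for 2 with DZCs above SZCs (20.5%), and so separated for 41.5% of all tested genes in either order.

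**Figure D1:**
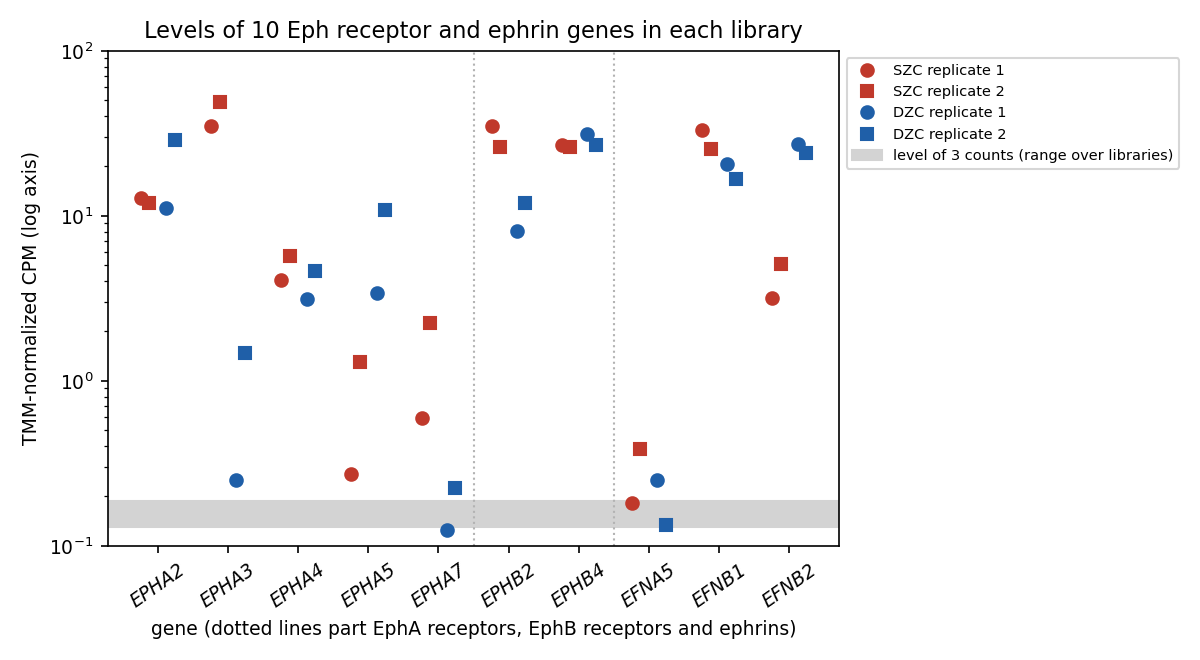
Level of each of the 10 genes in each library, as TMM-normalized CPM on a log axis. Red marks are SZC libraries and blue marks DZC libraries, circles replicate 1 and squares replicate 2, and the grey band is the level of 3 counts over the libraries. *EPHA3* stood at 35.2 and 48.8 CPM in SZCs and at 0.249 and 1.48 CPM in DZCs, and *EFNB2* showed the opposite order, at 3.18 and 5.13 CPM against 27.1 and 24.0 CPM.

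*EPHA3* (ENSBTAG00000006811) encodes an EphA receptor that binds ephrin-A ligands. SZC replicates 1 and 2 held 775 and 1133 counts of it, and DZC replicates 1 and 2 held 4 and 33. The mean level of SZCs was 42.0 ± 9.62 CPM (SD, n = 2), and that of DZCs was 0.864 ± 0.870 CPM (SD, n = 2). Both SZC libraries lay far above both DZC libraries, and the counts in DZC replicate 1 were close to the floor of 3 counts. This gave a log2 fold change of 5.56 ± 0.70 (standard error), with a 95% interval from 4.19 to 6.92 and FDR 5.70e-09 in edgeR's exact test. The study reported *EPHA3* as higher in SZCs from these same libraries, so this FDR is no independent evidence of its direction. In libraries of mixed cells, fewer cells that express a gene and less RNA per cell cannot be told apart.

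The size of the *EPHA3* difference depended on the DZC library. *EPHA3* was 5.94-fold higher in DZC replicate 2 than in DZC replicate 1, while the SZC libraries differed by 1.39-fold. Without DZC replicate 1 the log2 fold change was 4.83, and without DZC replicate 2 it was 7.39. *EPHA3* passed the FDR threshold with each of the 4 libraries left out, where the lone library of a zone was assumed to vary as the libraries of the other zone did. *PRG4*, which encodes lubricin, was 4.02-fold higher in DZC replicate 2 than in DZC replicate 1, and 4 of the 5 superficial zone markers had this order, with *VIT* the exception. The summed level of these 5 markers was 77.7 CPM in DZC replicate 1 and 163 CPM in DZC replicate 2, against 4766 and 3574 CPM in the SZC libraries. The part of this difference in the *EPHA3* levels was not tested.

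The genes whose profile over the 4 libraries lay nearest to that of *EPHA3* were *SCARA5*, *PLCXD3*, *MME*, *PI15* and *PRG4*, in that order. Likeness was measured as the Euclidean distance between log2 CPM values (with a prior count of 2) after the mean of each gene was subtracted, among 11811 tested genes with a symbol. The distances were from 0.66 for *SCARA5* to 0.97 for *PRG4*, against a median of 6.06 over all those genes. *SCARA5*, a ferritin receptor, had 292 and 246 counts in SZCs against 0 and 11 in DZCs. *PLCXD3*, a gene of the phospholipase C-like family, had 127 and 177 counts in SZCs against 0 and 3 in DZCs. *MME*, which encodes the membrane peptidase neprilysin, had 603 and 804 counts in SZCs against 6 and 46 in DZCs. *PI15*, a peptidase inhibitor, had 473 and 293 counts in SZCs against 1 and 14 in DZCs. *PRG4* had 69682 and 46976 counts in SZCs against 246 and 1372 in DZCs. In all 5, as in *EPHA3*, DZC replicate 2 held more counts than DZC replicate 1, an order that the choice by likeness over the same libraries largely fixes.

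By edgeR's exact test with all libraries, none of the other EphA receptors passed the FDR threshold. *EPHA5*, a receptor best known from the nervous system, had 6 and 30 counts in SZCs against 55 and 242 in DZCs. Both DZC libraries lay above both SZC libraries, but within each zone replicate 2 was several times higher than replicate 1, by 4.74-fold in SZCs and 3.17-fold in DZCs. SZCs averaged 0.783 ± 0.721 CPM (SD, n = 2) and DZCs 7.13 ± 5.25 CPM (SD, n = 2). The log2 fold change, -3.18 ± 0.94 (standard error), missed the threshold in edgeR's exact test (FDR 0.0644). *EPHA5* passed in DESeq2 (FDR 0.0178) and with common then gene-wise dispersion in edgeR's exact test (0.0189). In that test it missed without a filter (0.0739), with the filter on CPM (0.0628), with size factors of DESeq2 (0.0615) and with library totals (0.273). It also missed in the quasi-likelihood test without a replicate block (0.396). Leaving out DZC replicate 1 gave a log2 fold change of -3.77, where it passed, and it was -2.09 without DZC replicate 2, where it did not (FDR 1.11e-05 and 0.0596 by edgeR's exact test). It was -4.68 without SZC replicate 2 and -2.46 without SZC replicate 1, and passed in neither case.

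*EPHA7*, an EphA receptor that also acts in the developing nervous system, had the opposite order. It had 13 and 52 counts in SZCs against 2 and 5 in DZCs. The zones did not overlap, but the counts were low and the SZC libraries differed by 3.79-fold. The log2 fold change, 2.95 ± 1.04 (standard error), also missed the threshold in edgeR's exact test (FDR 0.132), and it was 2.64 without DZC replicate 1 and 3.47 without DZC replicate 2. Leaving out SZC replicate 2 moved it most, to 1.70, and leaving out SZC replicate 1 gave 3.61. Of 8 neural and glial genes, 4 passed the filter and 0 were called by edgeR's exact test or DESeq2, with 0 at an unadjusted p-value under 0.05, and *ELAVL4* had at most 3 counts in any library. The summed level of that list was 672 and 703 CPM in SZCs and 1157 and 377 CPM in DZCs, mostly from *S100B*, which chondrocytes also express, and *GFAP*. The other 6 summed to 11.5 and 10.1 CPM in SZCs and 17.8 and 11.4 CPM in DZCs, and the zones overlapped.

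*EPHA2*, a receptor found in many epithelia and also in cartilage and bone cells, had 282 and 279 counts in SZCs against 180 and 643 in DZCs. Its level was alike in 3 libraries, at 12.8 and 12.0 CPM in SZCs and 11.2 CPM in DZC replicate 1, and stood apart at 28.8 CPM in DZC replicate 2. The log2 fold change, -0.69 ± 0.55 (standard error), did not pass edgeR's exact test (FDR 0.889) and depended on that library. Without DZC replicate 2 it was 0.17 (FDR 0.800), and without DZC replicate 1 it was -1.21 (FDR 0.00278 by the same edgeR test). The summed levels of the mitotic genes and of the hypertrophic and bone genes, though not that of *IHH*, were also highest in DZC replicate 2, and their part in the *EPHA2* level was not tested.

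*EPHA4*, which can bind ligands of both classes, had 90 and 132 counts in SZCs against 50 and 103 in DZCs. The levels overlapped, at 4.09 and 5.69 CPM in SZCs and 3.11 and 4.62 CPM in DZCs. Its log2 fold change was 0.34 with a 95% interval from -0.79 to 1.46, so a difference was not detectable with these libraries.

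*EPHB2* (ENSBTAG00000045902), an EphB receptor that binds ephrin-B ligands, had 765 and 608 counts in SZCs against 130 and 268 in DZCs. Its level was 34.8 and 26.2 CPM in SZCs and 8.09 and 12.0 CPM in DZCs, and each SZC library was above each DZC library. SZCs were 3.02-fold higher, a log2 fold change of 1.60 ± 0.41 (standard error) that passed edgeR's exact test with FDR 0.00933. It was 1.34 without DZC replicate 1 and 1.93 without DZC replicate 2, and passed in both cases. With an SZC library left out the log2 fold change stayed near 1.60 but the call was lost, at 1.38 with an FDR of 1 without SZC replicate 1 and 1.79 with 0.289 without SZC replicate 2 (edgeR's exact test).

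*EPHB4*, the receptor that pairs with ephrin-B2 in blood vessels and bone, had 592 and 610 counts in SZCs against 503 and 596 in DZCs. The 4 levels lay close together, at 26.9 and 26.3 CPM in SZCs and 31.3 and 26.7 CPM in DZCs. Its log2 fold change was -0.12 with a 95% interval from -0.80 to 0.56, and it was 0.20 under scaling by library totals alone, so its sign depended on the scaling.

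Of the 3 ephrins, *EFNB2* (ENSBTAG00000016991) was the one called. It encodes ephrin-B2, a ligand of EphB receptors that is known from arteries and from cells of the growth plate and bone. It had 70 and 119 counts in SZCs against 436 and 535 in DZCs. SZCs averaged 4.15 ± 1.38 CPM (SD, n = 2) and DZCs 25.6 ± 2.22 CPM (SD, n = 2), with no overlap. DZCs were thus 6.14-fold higher, a log2 fold change of -2.62 ± 0.44 (standard error) that passed edgeR's exact test with FDR 5.61e-06. In contrast to *EPHA3*, *EFNB2* had nearly the same level in both DZC libraries, and its log2 fold change was -2.52 without DZC replicate 1 and -2.68 without DZC replicate 2. It was -2.32 without SZC replicate 1, where the FDR rose to 0.321, and -3.00 without SZC replicate 2 (FDR 0.0304, edgeR's exact test).

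Because *EFNB2* and *EPHB4* also mark blood vessels, endothelial genes were read in the same libraries. Of 10 such genes, 5 passed the filter and 1 was called, *ERG*. By edgeR's exact test 2 had an unadjusted p-value under 0.05, *ERG* and *KDR*, both higher in SZCs. The study lists *ERG* among gene expression regulators with higher levels in SZCs. The summed level of the other 9 was 5.77 and 13.6 CPM in the SZC libraries and 3.92 and 8.34 CPM in the DZC libraries. Among these 9, *VWF* had the order of *EFNB2*, at 2.23 and 3.23 CPM in SZCs against 3.36 and 4.48 CPM in DZCs, and *KDR* the reverse, at 1.59 and 3.58 CPM against 0 and 0.672 CPM. Without *VWF* the sum was 3.54 and 10.4 CPM in SZCs and 0.56 and 3.85 CPM in DZCs. The part of such cells in the *EFNB2* levels was not tested. The defining gene *CLDN5* had at most 1 count in any library, and *CDH5* had 1 and 10 counts in SZCs against 0 and 7 in DZCs. Of 8 immune genes 4 passed the filter and 0 were called by edgeR's exact test or DESeq2, with 1 at an unadjusted p-value under 0.05 (*CD14*) and *CD3E* and *CD79A* at 3 counts or fewer in every library, and their summed level was 17.6 and 28.5 CPM in SZCs and 6.78 and 13.0 CPM in DZCs. Of 8 pericyte and smooth muscle genes, *KCNJ8* was called and was higher in SZCs. An unadjusted p-value under 0.05 by edgeR's exact test was found for 2 of them, *KCNJ8* and *ABCC9*, both higher in SZCs. The summed level of this list was 2568 and 2136 CPM in SZCs and 2425 and 2020 CPM in DZCs, nearly all of it from *CSPG4*. In 3 of the 4 libraries most of the rest came from *ACTA2*, at 11.5 and 93.2 CPM in SZCs and 53.2 and 311 CPM in DZCs. The other 6 summed to 23.1 and 31.7 CPM in SZCs, above the 8.21 and 18.7 CPM in DZCs.

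*EFNB1*, which encodes ephrin-B1, a ligand needed for normal formation of the skull and limbs, had 724 and 592 counts in SZCs against 331 and 373 in DZCs. Its levels of 32.9 and 25.5 CPM in SZCs lay above those of 20.6 and 16.7 CPM in DZCs. The log2 fold change, 0.65 ± 0.38 (standard error), did not pass edgeR's exact test (FDR 0.703), and its 95% interval reached from -0.09 to 1.38. With a DZC library left out, the log2 fold changes of the uncalled *EFNB1*, *EPHA4* and *EPHB4* lay between 0.53 and 0.81, 0.086 and 0.67, and -0.21 and -0.0043, in that order.

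*EFNA5* encodes ephrin-A5, a ligand that binds EphA3 strongly. It had 4 and 9 counts in SZCs against 4 and 3 in DZCs, at or little above that floor, and it was not tested. Without a filter its log2 fold change was 0.60 with an FDR of 1 by edgeR's exact test.

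**Figure D2:**
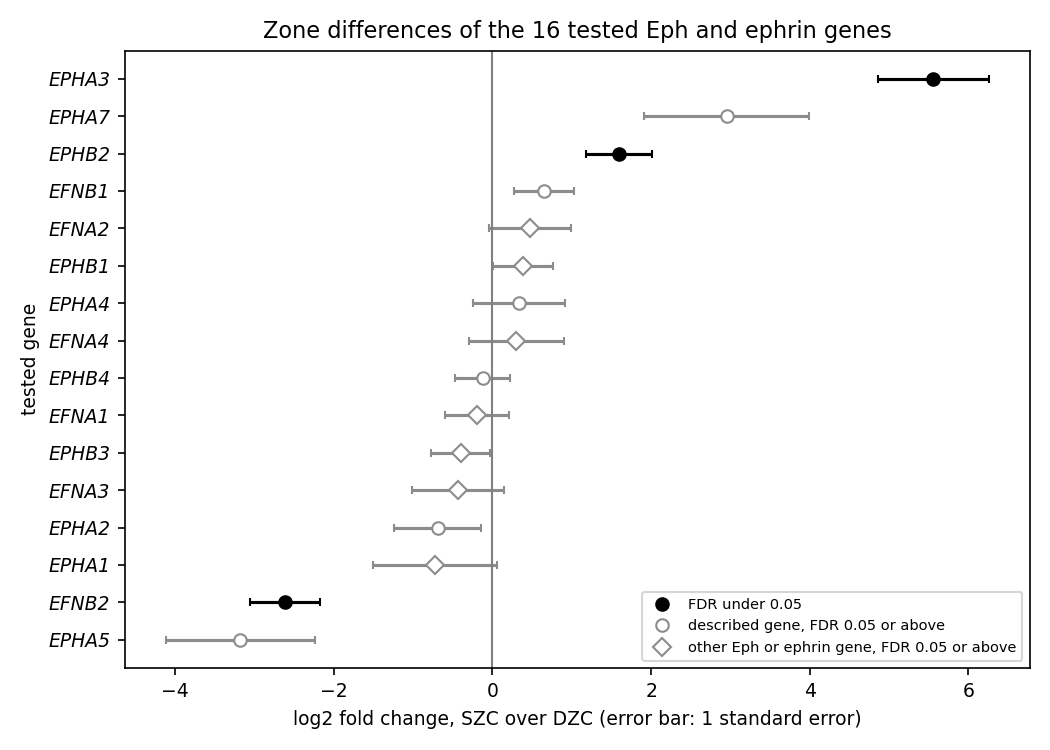
Log2 fold change of SZCs over DZCs for the 16 Eph receptor and ephrin genes that passed the filter, with 1 standard error on each side. Filled marks have an FDR under 0.05 by edgeR's exact test, circles are the genes described above and diamonds the rest of the families. *EPHA3* lay at 5.56 and *EPHB2* at 1.60 on the side of SZCs, *EFNB2* at -2.62 on the side of DZCs, and all diamonds lay between -0.72 and 0.47.

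The rest of the families gave no call. The mammalian families hold 12 further genes by name, of which 11 were found in the count table, with no row named *EFNB3*, and 7 passed the filter. By edgeR's exact test 0 of these 7 differed between the zones, 0 had an unadjusted p-value under 0.05, and 0 were called in any of the 12 alternative settings, DESeq2 included. *EFNA1*, an ephrin-A ligand, had 1959 and 1431 counts in SZCs against 1650 and 1554 in DZCs, with a log2 fold change of -0.19 and a 95% interval from -0.98 to 0.59, and it was 0.11 without DZC replicate 1 and -0.42 without DZC replicate 2. *EFNA2*, *EFNA3* and *EFNA4*, further ephrin-A ligands, had log2 fold changes of 0.47, -0.44 and 0.30. In the RefSeq annotation (assembly ARS-UCD2.0, used only for the order of genes), *EFNA1*, *EFNA3* and *EFNA4* are direct neighbours among coding genes, and none of these 3 passed the test. *EPHB1* and *EPHB3*, receptors of ephrin-B ligands, had log2 fold changes of 0.39 and -0.40 (standard errors 0.38 and 0.38). *EPHA8* had 0 counts in every library, which is under the floor of 3 counts and does not show that it is absent. *EPHA6*, *EPHA10* and *EPHB6* had at most 8 counts in any library. By class, 1 of 6 tested EphA receptors, 1 of 4 EphB receptors, 0 of 4 ephrin-A ligands (edgeR's exact test, with 0 at an unadjusted p-value under 0.05) and 1 of 2 ephrin-B ligands were called, against 2.93% of all tested genes.

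Levels were not compared between genes, since counts depend on transcript length, which was not known here. The ratio of a pair of genes within a library still shows whether their balance differs between libraries, because length is the same in each. Pairs of this kind were chosen after their values were seen and are given without a test. The log2 ratio of *EPHA3* to *EPHA5* counts was 7.01 and 5.24 in SZCs but -3.78 and -2.87 in DZCs, a difference of means of 9.45. The log2 ratio of *EFNB2* to *EFNB1* was -3.37 and -2.31 in SZCs but 0.40 and 0.52 in DZCs, so that the balance of the ephrin-B ligands shifted towards *EFNB2* in DZCs, with a difference of means of -3.30. The log2 ratio of *EPHB2* to *EPHB4* was 0.37 and -0.0047 in SZCs but -1.95 and -1.15 in DZCs. In each of these 3 pairs the SZC libraries did not overlap the DZC libraries, but the share of other gene pairs that separate was not computed. Singly, 41.5% of all tested genes separated in either order. For *EPHA3* with *EPHA5* and *EFNB2* with *EFNB1* the separation follows from the single genes, which already separated in opposite orders. These ratios do not depend on how the libraries were scaled.

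**Figure D3:**
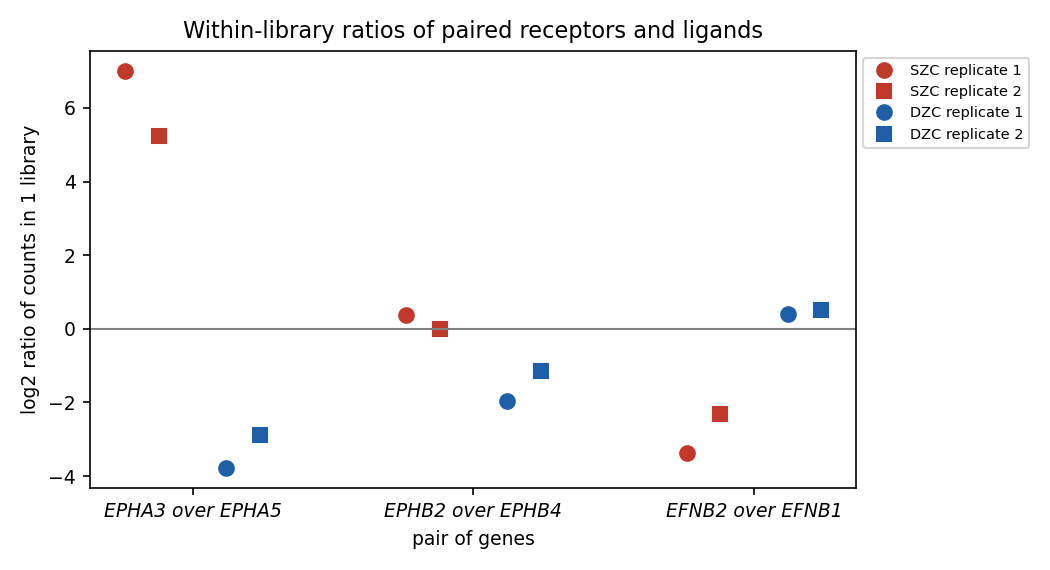
Log2 ratio of the counts of a pair of genes within each library, with SZC libraries in red, DZC libraries in blue, replicate 1 as circles and replicate 2 as squares. The ratio of *EPHA3* to *EPHA5* fell from 7.01 and 5.24 in SZCs to -3.78 and -2.87 in DZCs, and the ratio of *EFNB2* to *EFNB1* had the opposite order. The zero line has no meaning of its own here, since gene lengths differ.

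Genes that act beside Eph receptors and ephrins in the cell were read from a list of 51 genes, of which 49 were found and 45 passed the filter. Of these 45, 2 were called (4.44%, against 2.93% of all tested genes), and the median log2 fold change was 0.05. Both encode exchange factors. *KALRN*, which encodes kalirin, a protein that acts below EphB receptors in neurons, had 897 and 767 counts in SZCs against 257 and 238 in DZCs. Its levels did not overlap, and the log2 fold change, 1.47 ± 0.40 (standard error), passed edgeR's exact test with FDR 0.0148. *VAV3*, an exchange factor of the Vav group that binds activated Eph receptors, had 174 and 243 counts in SZCs against 657 and 566 in DZCs. Here DZCs were higher, and the log2 fold change, -1.85 ± 0.43 (standard error), passed with FDR 0.00248 in edgeR's exact test. The calls of *KALRN* and *VAV3* were each lost when either SZC library was left out, with FDR values from 0.293 to 1 (edgeR's exact test), while the log2 fold changes were 1.31 and 1.61 for *KALRN* and -1.66 and -2.07 for *VAV3* without SZC replicates 1 and 2. Without DZC replicate 1 or 2 both passed, with log2 fold changes of 1.79 and 1.23 for *KALRN* and -1.46 and -2.13 for *VAV3*.

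Among 14 tested kinases and adaptors, 4 phosphatases, 5 proteases and 6 partners with PDZ domains, 0 genes were called by edgeR's exact test or DESeq2, with 2 at an unadjusted p-value under 0.05 (*ABL1* and *MMP14*). The uncalled gene with the highest mean CPM in each role of the list, not divided by length, was *RHOA* (log2 fold change -0.10), *INPPL1* (-0.27), *PTPN11* (0.01), *MMP14* (1.07) and *SDCBP* (0.26). *INPPL1* encodes the lipid phosphatase SHIP2 that binds EphA2, *PTPN11* the phosphatase SHP2, and *SDCBP* syntenin, which binds the tail of ephrin-B ligands. *RHOA* and *INPPL1* changed sign under scaling by library totals alone. *MMP14*, a membrane protease, had 10705 and 7482 counts in SZCs against 3699 and 3475 in DZCs, with an FDR of 0.234 by edgeR's exact test, and it passed with scaling by library totals (0.0235) and without DZC replicate 1 (log2 fold change 1.38, FDR 0.0134). With each of the other libraries left out it lay between 0.74 and 1.33 and did not pass. *ADAM10*, the protease known to cut ephrins when a receptor binds them, had 433 and 446 counts in SZCs against 122 and 502 in DZCs, with a log2 fold change of 0.37 and an FDR of 1. That value depended on the DZC library, as it was -0.21 without DZC replicate 1 and 1.38 without DZC replicate 2, where it passed (FDR 0.00145, edgeR's exact test).

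**Figure D4:**
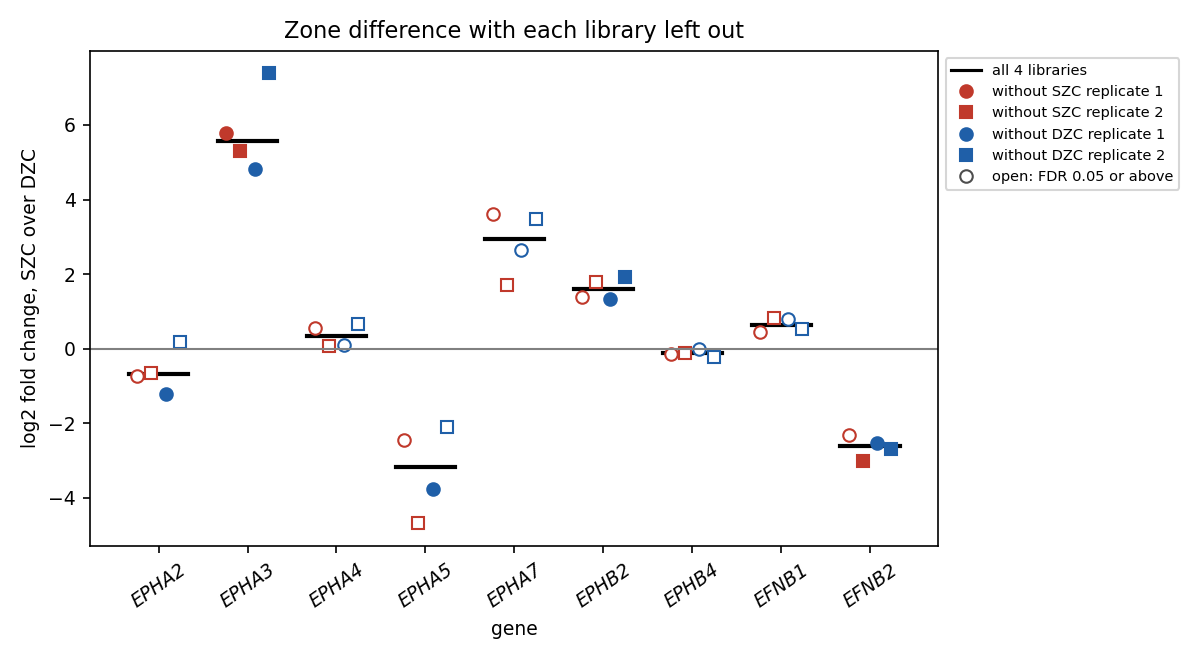
Log2 fold change of SZCs over DZCs for the 9 tested genes with all 4 libraries (black lines) and after leaving out 1 library at a time (marks). Red marks lack an SZC library and blue marks a DZC library, circles lack replicate 1 and squares replicate 2, and open marks have an FDR of 0.05 or above by edgeR's exact test. *EPHA3* stayed between 4.83 and 7.39 and passed in all 4 cases, *EFNB2* passed in 3 and *EPHB2* in 2, and *EPHA2* crossed zero.

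The genes also differed in how far the replicates of a zone lay apart. The median log2 difference between replicates over the 9 genes, without its sign, was 0.47 in SZCs and 0.57 in DZCs, against 0.25 and 0.56 over all tested genes. *EPHA3*, *EPHA4*, *EPHA5* and *EPHA7* were higher in the library numbered 2 than in that numbered 1 in both zones, an order that 32.8% of all tested genes had. They were 4 of the 9 genes and 4 of 6 tested EphA receptors, since *EPHA1* and *EPHA2* lacked this order. The difference from the share of all genes was not tested. *EPHB4* and *EFNB1* had the reverse order in both zones.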

How the data were processed

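Counts were deposited by the authors without normalization, from 75-base single-end reads of SMART-Seq v4 libraries aligned with STAR 2.5.2b to Ensembl build UMD 3.1 and counted per gene without regard to strand, so reads from genes that overlap on opposite strands could not be told apart by strand. The authors also deposited their own log2 fold changes and adjusted p-values, and only the gene symbols of that table were used, to fill 8 blank names. The 4 ATAC-Seq libraries were not analysed here.

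Zones were compared with edgeR 4.0.16 (R 4.3.3) by the exact test, as in the methods of the paper, with TMM scaling, the default filter and dispersion (12857 genes tested), and Benjamini-Hochberg adjustment over all of them at 0.05. Standard errors and 95% intervals follow from the negative binomial model at the gene-wise dispersion. P-values measure the spread between these libraries, which the study calls biological duplicates. Replicates differed by more than sampling noise (chi-square per degree of freedom 65.7 in SZCs and 316 in DZCs). Alternatives were the quasi-likelihood test with and without the replicate number as a block, DESeq2 1.42.0, no filter, a filter at 1 CPM in 2 libraries or more, size factors of DESeq2, library totals, common then gene-wise dispersion, and each library left out. The members and gene lists (other family genes, partners and cell type markers) were chosen with earlier results of these data known. Named genes are the members, called family genes and partners, the most abundant uncalled partner of each role, the 5 genes nearest to *EPHA3*, and *PRG4*. *ADAM10*, the ephrin genes named beside them, and single markers were added after their values were seen. Scripts were tested on simulated counts.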

Additional observations from a re-analysis of the deposited data

How the results depend on the processing

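The quasi-likelihood test of edgeR without a replicate block called 0 genes in all, 0 of the 9 members and 0 signalling partners, with 1126 genes, 5 members and 4 partners at an unadjusted p-value under 0.05, and gave *EPHA3* a log2 fold change of 5.53 (FDR 0.125, and from 2.90e-14 to 0.125 over the 8 alternatives that kept all libraries). The cause was not tested. Same-numbered libraries had deviations from their zone means with a correlation of 0.43 across genes, but the labels give them only a shared number. Under the replicate block 347 genes passed the same test, 277 of them among the 377 of the exact test, as did 4 members, *EPHA5* (FDR 0.0142) beside *EPHA3* (log2 fold change 5.75, FDR 0.00164), *EPHB2* and *EFNB2*. Scaling by library totals moved the median log2 fold change of all genes by 0.30, called 4 partners, and turned *EPHB4* (0.20), *RHOA* (0.23) and *INPPL1* (0.13). With each library left out, the exact test called from 68 (without SZC replicate 1) to 2768 genes (without DZC replicate 2), from 1 to 5 members and from 0 to 15 partners. Those counts rest on the spread of a single pair, and the SZC pair varied less. *EPHA2* then lay between -1.21 and 0.17, *PTPN11* between -0.39 and 0.60 (-0.18 without SZC replicate 2), *RHOA* between -0.23 and 0.078 and *INPPL1* between -0.67 and 0.34. The filter on CPM left out *EPHA7*. Of 239 values for single genes under all alternatives, 208 kept their direction and side of the threshold.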
